A study of Mus musculus with 16 samples.

Results

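The miR-26 and miR-101 families were followed through their 4 guide strands, listed as mmu-miR-26a-5p, mmu-miR-26b-5p, mmu-miR-101a-3p and mmu-miR-101b-3p and written here without the species prefix. These were the 4 entries with those exact names among the 1915 mature microRNAs of the count table. All 4 passed the filter on low counts, which left 234 entries for testing. Small RNA had been sequenced from extracellular vesicles (EVs) of bone marrow plasma of 16 mice, all 6 months old, on the C57BL/6N background and carrying the CAGS-Snorkel allele, and the EVs had been captured with an antibody to the HA tag. In the Ocn group of 6 mice (3 male and 3 female) the other allele was Ocn-Cre, whose osteocalcin promoter is a marker of mature osteoblasts and osteocytes. In the Prx1 group of 10 mice (5 male and 5 female) it was Prx1-Cre, which acts early in mesenchyme of the limb buds, whose descendants include osteoblasts, so the source cells of the groups can overlap. EVs of mice without Cre were not analysed here, and the background of the capture is therefore unknown.

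MicroRNAs guide the silencing complex to messenger RNAs that pair with their seed, the stretch near the 5′ end. miR-26 and miR-101 have different seeds but are both reported to repress Ezh2, the histone methyltransferase of Polycomb repressive complex 2, which keeps lineage genes silent in stem and progenitor cells. miR-26a is also known for an effect on osteogenic differentiation of stromal cells in culture, in human cells through SMAD1, and miR-101 was described as a brake on EZH2 in human tumours. The messenger RNA of Ezh2 was not part of this assay.

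The mature sequences of all 4 members were found in RefSeq (GRCm38.p6, the assembly that mm10 stands for), and they are shown because they set which counts can be told apart. Capitals mark the seed, bases 2 to 8 counted from the 5′ end.
miR-26a-5p: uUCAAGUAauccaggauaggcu
miR-26b-5p: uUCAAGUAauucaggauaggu
miR-101a-3p: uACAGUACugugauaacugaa
miR-101b-3p: gUACAGUAcugugauagcu
The miR-26 members share the seed and their first 10 bases, and differ by C11U and C21U, positions being those of miR-26a. No other mouse entry in RefSeq has their seed. The RefSeq form of miR-101b starts 1 base earlier than that of miR-101a, so the seeds of the miR-101 members are offset by 1 base, and over the 18 aligned bases they differ only by A16G, counted along miR-101a. A read that ends before base 16 of miR-101a lacks that difference and could be assigned to either miR-101 member. The miR-26 members differ at base 11, in the middle of the sequence, which shortened ends hide less easily. How the authors' counting treated shortened reads is not given in the sources used here.

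The members come from 5 hairpins, shown with the guide strand in capitals because miR-26a-5p is cut from either of a pair of loci that its count cannot separate.
Mir26a-1: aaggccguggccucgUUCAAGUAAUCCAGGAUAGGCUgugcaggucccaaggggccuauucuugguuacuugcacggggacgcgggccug
Mir26a-2: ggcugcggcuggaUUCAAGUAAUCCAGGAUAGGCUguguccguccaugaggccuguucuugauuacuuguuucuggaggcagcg
Mir26b: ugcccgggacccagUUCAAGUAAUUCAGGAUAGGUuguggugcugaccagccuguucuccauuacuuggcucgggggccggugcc
Mir101a: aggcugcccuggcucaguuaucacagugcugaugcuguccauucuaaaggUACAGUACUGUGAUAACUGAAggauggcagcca
Mir101b: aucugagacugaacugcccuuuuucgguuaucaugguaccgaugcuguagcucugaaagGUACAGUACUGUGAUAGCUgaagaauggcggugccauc
Each miR-26 hairpin lies on the strand of a gene for a small C-terminal domain phosphatase. Mir26a-1 is in an intron of Ctdspl (chr9:119031796-119031885, plus strand) and Mir26b in an intron of Ctdsp1 (chr1:74394310-74394394, plus strand). Mir26a-2 lies within Ctdsp2 and overlaps an annotated exon of it (chr10:126995530-126995613, plus strand). Mir101a overlaps an exon of the lincRNA E130102H24Rik (chr4:101346945-101347027, minus strand). Mir101b is in an intron of Rcl1, a gene of ribosomal RNA processing (chr19:29135279-29135375, plus strand). Gene overlaps are from GENCODE M21, which is on mm10 as well.

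Totals ran from 582660 to 1536421 counts in the Ocn libraries and from 225273 to 813770 in the Prx1 libraries, so depth differed with the group. Summed levels of marker microRNAs ran from 31426 to 43032 counts per 1000000 counts of the library (CPM) in Ocn and from 26518 to 34989 CPM in Prx1 for 5 mesenchymal and stromal entries, and from 40238 to 95934 CPM in Ocn and from 44090 to 72415 CPM in Prx1 for 5 leukocyte and platelet entries. The 5 red blood cell entries summed to 23947 to 43670 CPM in Ocn and 31873 to 47291 CPM in Prx1. Microvascular (2 entries, miR-126a) and muscle markers (3 entries) were also present in every library, at 16712 to 20837 CPM and 46680 to 77323 CPM in Ocn, and at 12913 to 19289 CPM and 39775 to 70705 CPM in Prx1. The liver marker miR-122-5p stayed between 4.40 and 23.5 CPM in Ocn and reached 1644 CPM in 1 Prx1 library. No marker was at 0 in every library, and miR-144-3p and miR-214-3p of these lists are also in the Ezh2 list described further on. Entries of a list did not all go the same way, so a sum does not stand for each of them. Among the red blood cell entries, the log2 fold change, Ocn over Prx1, was 0.58 for miR-144-3p and -0.38 for miR-486a-5p. Among the muscle entries it was 0.34 for miR-1a-3p and -0.68 for miR-133a-3p. Fewer EVs from a cell type cannot be told apart from less of a microRNA per EV. All values are relative to the other microRNAs of the same library. The part of these sources in the results was not tested.

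miR-26a-5p, the most abundant member, was among the leading microRNAs of these vesicles, at rank 9 or 10 of its library in all 16. Its level was lowest at 25654 CPM in Ocn 2, had a median of 27488 CPM and was highest at 30430 CPM in Ocn 5. In Prx1 the lowest value was 22759 CPM, the median 23845 CPM and the highest 25234 CPM. Every Ocn library was above every Prx1 library. The means were 27824 ± 2057 CPM in Ocn, against 23900 ± 775 CPM in Prx1 (SD, n = 6 and 10). Of the 234 entries tested, 3.85% had groups that did not overlap on this scale. With TMM-scaled totals, which correct for a few strongly differing entries, the separation was not complete, as 2 Prx1 libraries lay above the lowest Ocn library. With the 5 most abundant entries left out of the totals, 5 Prx1 libraries did, and 5 of the 6 Ocn libraries were above the Prx1 mean, the exception being Ocn 3. In mean level it stood between miR-142a-3p, a leukocyte microRNA at 42848 ± 17440 CPM in Ocn, against 38941 ± 5727 CPM in Prx1, and miR-29a-3p, at 12624 ± 2063 CPM in Ocn, against 20782 ± 6157 CPM in Prx1. The distance to miR-142a-3p was within the spread of that entry in Ocn, and the distance to miR-29a-3p within its spread in Prx1.

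Depth and group overlap in part, so levels in the 3 shallowest Ocn libraries are given beside those in the deepest pair of Prx1 libraries. Ocn 3, Ocn 1 and Ocn 6, with 582660, 616811 and 680641 counts, had 28377, 26600 and 29919 CPM of miR-26a-5p, against 23977 and 24003 CPM in Prx1 8 and Prx1 9, with 596734 and 813770 counts. The shallowest library, Prx1 4, held 5127 counts of it. These few libraries do not separate depth from group, and the part of depth in the level was not tested by them.

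miR-26b-5p, with the same seed from another locus, was less abundant, at rank 21 to 24 in Ocn libraries and 24 to 30 in Prx1 libraries. It ran from 8624 CPM in Ocn 6 to 9664 CPM in Ocn 3, with a median of 9342 CPM. In Prx1 it ran from 6306 CPM in Prx1 10 to 8791 CPM in Prx1 3, with a median of 7600 CPM. The means were 9176 ± 432 CPM in Ocn and 7565 ± 1016 CPM in Prx1 (SD, n = 6 and 10), and 2 Prx1 libraries overlapped the Ocn range from below. Its neighbours in mean level, miR-199b-3p just above and miR-30a-5p just below, did not differ from it beyond the spread between libraries within Prx1, at 8042 ± 680 and 7357 ± 1054 CPM there. In Ocn, miR-199b-3p (8916 ± 840 CPM) was again within the spread and miR-30a-5p (7347 ± 1462 CPM) was lower by more than 1 SD of either.

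**Figure D1:**
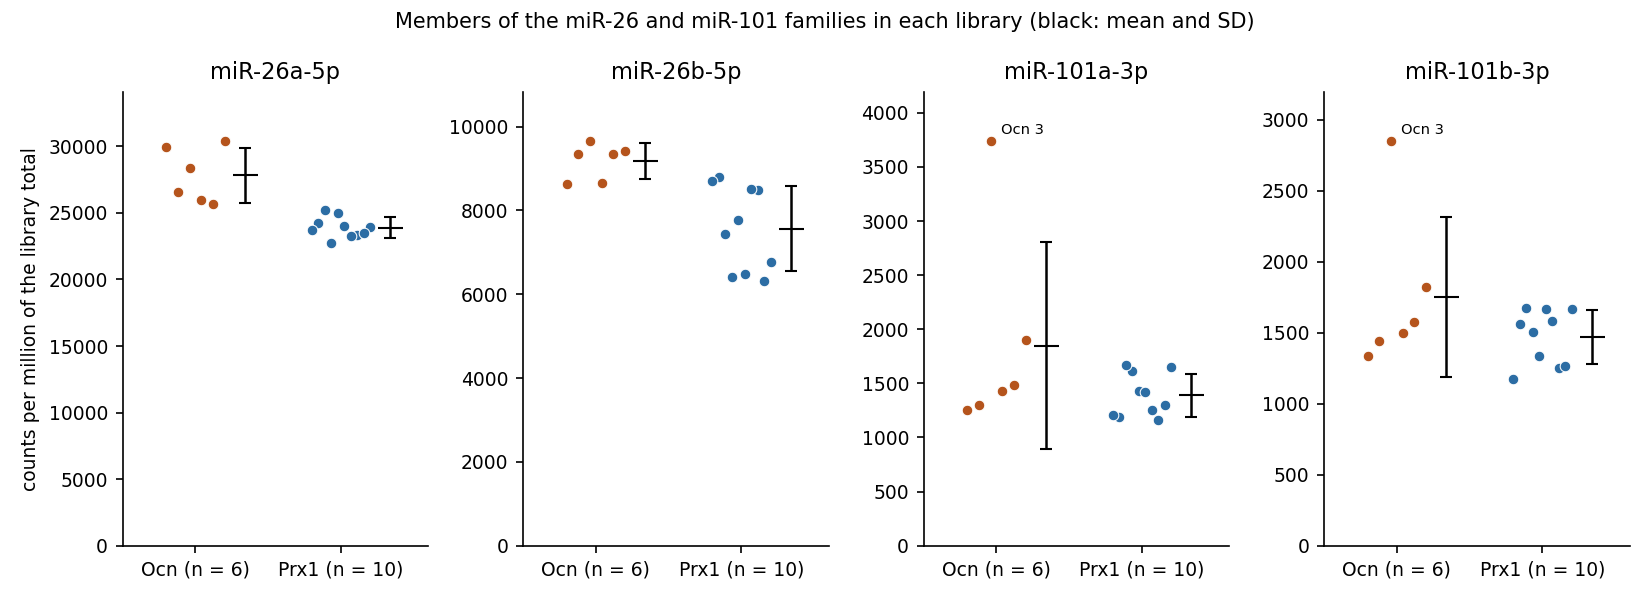
CPM of the library total (linear axes from 0) for the 4 members, 1 point per library, with the mean and SD in black beside each group. miR-26a-5p shows no overlap between Ocn and Prx1, miR-26b-5p overlaps in 2 Prx1 libraries, and Ocn 3 stands apart for miR-101a-3p (3743 CPM) and miR-101b-3p (2852 CPM).

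Within a library, miR-26a-5p exceeded miR-26b-5p in all 16. Adaptor ligation can differ between sequences, so such a ratio of counts is not a ratio of molecules, but it can be followed across libraries, and it does not depend on the scaling. It averaged 3.04 ± 0.27 in Ocn and 3.21 ± 0.43 in Prx1 (SD, n = 6 and 10), a difference smaller than the spread. The Ocn libraries ran from 2.75 to 3.47. The Prx1 libraries left a gap: Prx1 1, Prx1 2, Prx1 3 and Prx1 7 lay between 2.73 and 2.75, and the other 6 between 3.22 and 3.73. Those 4, set apart by the gap in these same values, had 23228 to 24218 CPM of miR-26a-5p, inside its narrow Prx1 range. Their miR-26b-5p was therefore the highest of Prx1, from 8477 CPM upward, against at most 7775 CPM in the others. This largely restates the ratio and is no separate result.

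miR-101a-3p and miR-101b-3p were about as abundant as each other and well below the miR-26 members. miR-101a-3p was lowest at 1252 CPM in Ocn 6, had a median of 1454 CPM and was highest at 3743 CPM in Ocn 3. In Prx1 it ran from 1158 to 1667 CPM with a median of 1358 CPM. The groups overlapped broadly, as 7 of the 10 Prx1 libraries were above the lowest Ocn library. The next highest Ocn library had 1897 CPM, so Ocn 3 lay far above all others, and without it the Ocn mean was 1470 ± 256 CPM (SD, n = 5) in place of 1849 ± 956 CPM (SD, n = 6), against 1389 ± 197 CPM in Prx1 (SD, n = 10).

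miR-101b-3p followed the same order of the Ocn libraries, from 1336 CPM in Ocn 6 to 2852 CPM in Ocn 3, with a median of 1535 CPM. In Prx1 it ran from 1177 to 1676 CPM with a median of 1534 CPM. The group means were 1753 ± 563 CPM in Ocn and 1469 ± 193 CPM in Prx1 (SD, n = 6 and 10), and 1533 ± 183 CPM in Ocn without Ocn 3 (SD, n = 5). By mean over all 16 libraries the miR-101 members stood at ranks 54 and 55, directly beside each other, between miR-126a-5p (1623 CPM) and let-7j (1410 CPM). Neither differed from those neighbours beyond the spread within Prx1, where miR-126a-5p had 1551 ± 253 CPM and let-7j 1385 ± 198 CPM.

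The ratio of miR-101a-3p to miR-101b-3p was above 1 in 6 of the 16 libraries, 2 in Ocn and 4 in Prx1. It averaged 1.01 ± 0.15 in Ocn and 0.951 ± 0.113 in Prx1 (SD, n = 6 and 10), again a difference smaller than the spread. Ocn 3 had the highest ratio, 1.31, and the other 5 Ocn libraries lay between 0.900 and 1.04. The excess of Ocn 3 over the other Ocn libraries was thus larger in miR-101a-3p than in miR-101b-3p. The miR-26 members did not stand apart there, with miR-26a-5p at 28377 CPM, below Ocn 5 and Ocn 6, and miR-26b-5p at 9664 CPM, beside 9427 CPM in the next library.

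Summed over the family, the miR-26 members made up 3.70% ± 0.21 of the counts of a library in Ocn and 3.15% ± 0.13 in Prx1. Every Ocn library was above every Prx1 library on column totals, where 3.85% of the single entries tested had groups that did not overlap. Most of that sum is miR-26a-5p, so this largely repeats its separation, which was not complete with TMM-scaled totals. The miR-101 members made up 0.360% ± 0.152 in Ocn and 0.286% ± 0.035 in Prx1 (SD, n = 6 and 10), with overlapping groups.

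Ocn 3 differed from the other Ocn libraries more widely. Of the 234 entries tested, 88 had their highest Ocn value in Ocn 3, beside 48 in Ocn 5, the next library. The lowest Ocn value was there for 64 entries, close to the 60 of Ocn 4. It also had the highest sums among Ocn libraries for the leukocyte and platelet markers (95934 CPM, against an Ocn median of 50026 CPM), the mesenchymal and stromal markers (43032 CPM, median 36060 CPM) and the red blood cell markers (43670 CPM, median 34557 CPM). For the muscle (64441 CPM), microvascular (17576 CPM) and liver (10.3 CPM) markers it was only at rank 3 among the Ocn libraries. The part of the marked cell types in the miR-101 values of Ocn 3 was not tested.

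**Figure D2:**
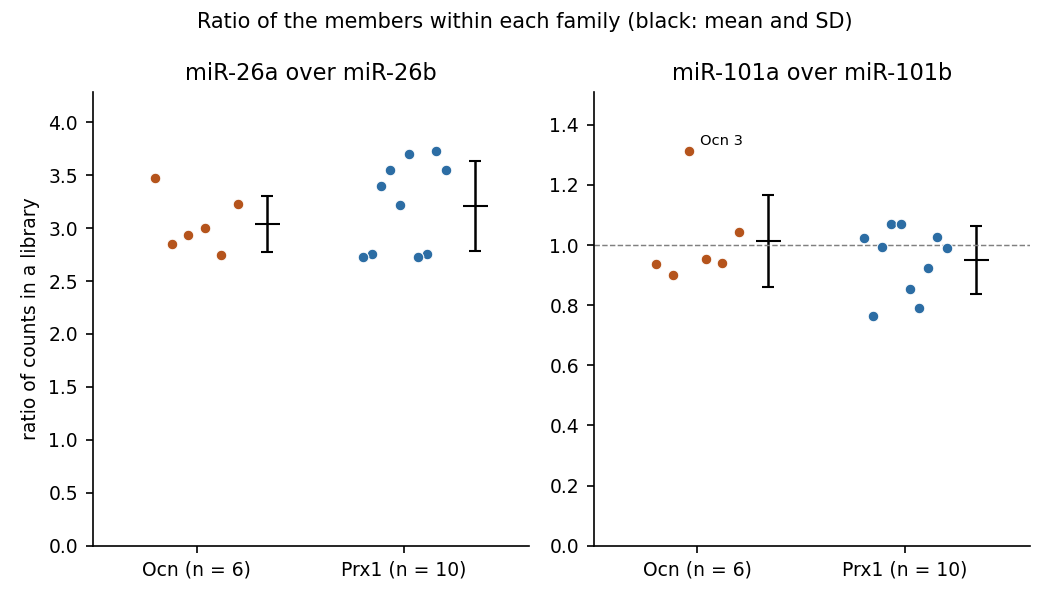
Ratio of counts within each library (linear axes from 0), 1 point per library, with the mean and SD in black, and a dashed line at 1 for miR-101. The miR-26a to miR-26b ratios of Prx1 fall at 2.73 to 2.75 in 4 libraries and at 3.22 to 3.73 in 6, and the miR-101a to miR-101b ratio of Ocn 3 is 1.31.

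The comparison of the drivers asked which microRNAs differed between EVs from the osteoblast driver and those from the limb mesenchyme driver. All 4 members had a positive log2 fold change, Ocn over Prx1, where 50.9% of the entries tested did. Their median was 0.22, against 0.01 over all 234. The members were chosen with earlier results of these data known and are 2 pairs of relatives, so their shared direction is a description only. With edgeR's quasi-likelihood test, adjusted over all 234 entries, 0 of the 4 passed the threshold of 0.05, beside 13.7% of all entries tested (5.98% higher and 7.69% lower in Ocn). At an unadjusted p under 0.05, 2 of the 4 were higher in Ocn, against 12.8% of all entries.

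The log2 fold change was 0.19 (SE 0.08, edgeR adjusted p = 0.154) for miR-26a-5p and 0.24 (SE 0.10, edgeR adjusted p = 0.133) for miR-26b-5p. On column totals and on TMM-scaled totals both miR-26 members had 6 of 6 Ocn libraries above the Prx1 mean. For miR-101a-3p it was 0.35 (SE 0.18, edgeR adjusted p = 0.187), with a 95% interval from -0.01 to 0.72. For miR-101b-3p it was 0.21 (SE 0.13, edgeR adjusted p = 0.323), with a 95% interval from -0.07 to 0.49. In each miR-101 member 4 of 6 Ocn libraries were above the Prx1 mean. Changes of the size that these intervals still hold were therefore not resolved for the miR-101 family.

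The call for the miR-26 members depended on the test, and each passed in 4 of 13 other settings. Neither passed in edgeR on library totals alone (edgeR adjusted p = 0.0706 for miR-26a-5p and 0.0799 for miR-26b-5p). The same held for counts thinned to the shallowest library (edgeR adjusted p = 0.159 and 0.0976). With DESeq2 the log2 fold changes were nearly the same, 0.18 for miR-26a-5p (adjusted p = 0.0230) and 0.25 for miR-26b-5p (adjusted p = 0.0312), and both passed, as did 17.9% of all entries with that test. An exact permutation test over all 8008 arrangements of the group labels was run on every entry and added after the values were seen. On column totals it gave a 2-sided p of 0.000125 for miR-26a-5p, the smallest it can give (adjusted p = 0.00417 over all 234). As every Ocn library was above every Prx1 library on that scale, this p restates the separation and is no further support. For miR-26b-5p the exact permutation p was 0.00487 (adjusted p = 0.0495), and 9.83% of all entries passed. On TMM-scaled totals the adjusted p of that exact test was 0.0117 for miR-26a-5p and 0.0725 for miR-26b-5p, with 10.3% of all entries passing. When log10 of the total entered the model as a covariate, neither passed, at 0.18 (SE 0.13, edgeR adjusted p = 0.519) and 0.32 (SE 0.17, edgeR adjusted p = 0.341), but in that fit 0% of all entries passed. With upper quartile scaling 15.8% of all entries passed, 26 as higher and 11 as lower in Ocn in place of 14 and 18. There miR-26a-5p was at 0.31 (edgeR adjusted p = 0.0297) and miR-26b-5p at 0.38 (edgeR adjusted p = 0.0139).

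A single library also decided calls, but most omissions changed none for the miR-26 members. Dropping each of the 16 libraries in turn brought miR-26a-5p under the threshold 1 time and miR-26b-5p 2 times. The edgeR adjusted p rose as high as 0.276 for miR-26a-5p (without Prx1 2) and 0.179 for miR-26b-5p (without Prx1 10). Without Ocn 3 the log2 fold change of miR-26a-5p was 0.26 (edgeR adjusted p = 0.0373) and that of miR-26b-5p 0.31 (edgeR adjusted p = 0.0370), both past the threshold, in a fit where 16.1% of all entries passed. In the same fit miR-101a-3p was at 0.12 (SE 0.13, edgeR adjusted p = 0.588) and miR-101b-3p at 0.11 (SE 0.11, edgeR adjusted p = 0.561). Leaving out Prx1 8 brought miR-26b-5p alone under the threshold (0.30, edgeR adjusted p = 0.0495), in a fit where 16.7% of all entries passed. With limma voom 20.5% of all entries passed, miR-26b-5p among them and miR-26a-5p not (adjusted p = 0.0244 and 0.0817). No miR-101 member passed in any fit that was run.

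**Figure D3:**
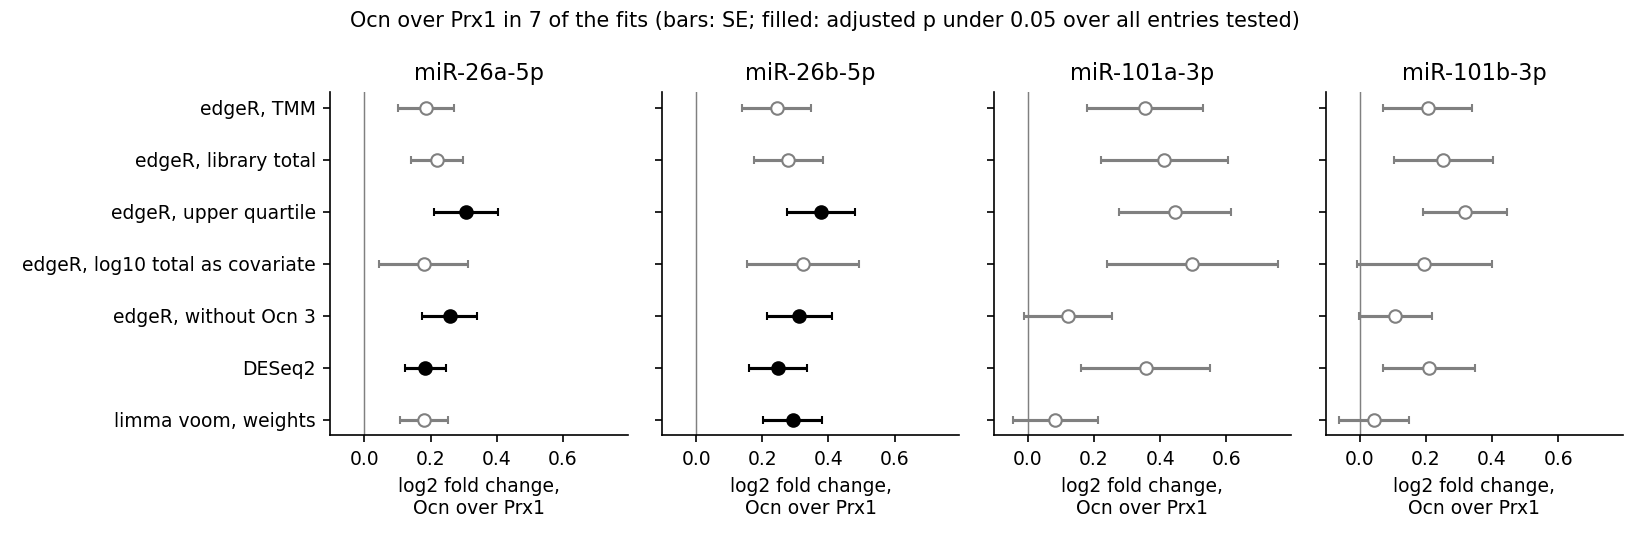
Log2 fold change, Ocn over Prx1, of each member in 7 fits, with the SE as bars and filled points where the p adjusted over all entries tested was under 0.05. The miR-26 members pass with upper quartile scaling, without Ocn 3 and with DESeq2, and miR-26b-5p also with limma voom, while the miR-101 points move toward 0 without Ocn 3 and with voom.

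Both miR-26 members had little spread in Ocn. Within Prx1 miR-26a-5p had the least, and the other 3 had much the same spread. The coefficient of variation (CV) of miR-26a-5p within Prx1 was 3.24%, the lowest of the 234 entries tested, where the median entry had 27.4%. Within Ocn it was 7.39%, at place 5 from the lowest, beside a median of 22.3%. miR-26b-5p had 4.71% in Ocn, at place 2 from the lowest, and 13.4% in Prx1, at place 28 from the lowest. miR-101a-3p and miR-101b-3p reached 51.7% and 32.1% in Ocn, at places 223 and 186, yet 14.2% and 13.1% in Prx1, at places 34 and 24. Without Ocn 3 their CV in Ocn was 17.4% and 11.9%.

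The spread that counting alone would give is a minimum, because it treats each count as a separate molecule, and whether reads or molecules were counted is unknown. With 339 to 1354 counts per Prx1 library, miR-101b-3p would have a CV of 4.41% from counting, and miR-26a-5p, with 5127 to 19533 counts, one of 1.08%. In edgeR's fit, where the spread of each entry is drawn toward that of others of like abundance, miR-26a-5p likewise had the lowest biological coefficient of variation of the 234, at 0.132 against a median of 0.218. The values of the others were 0.155 for miR-26b-5p, 0.191 for miR-101b-3p and 0.247 for miR-101a-3p.

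**Figure D4:**
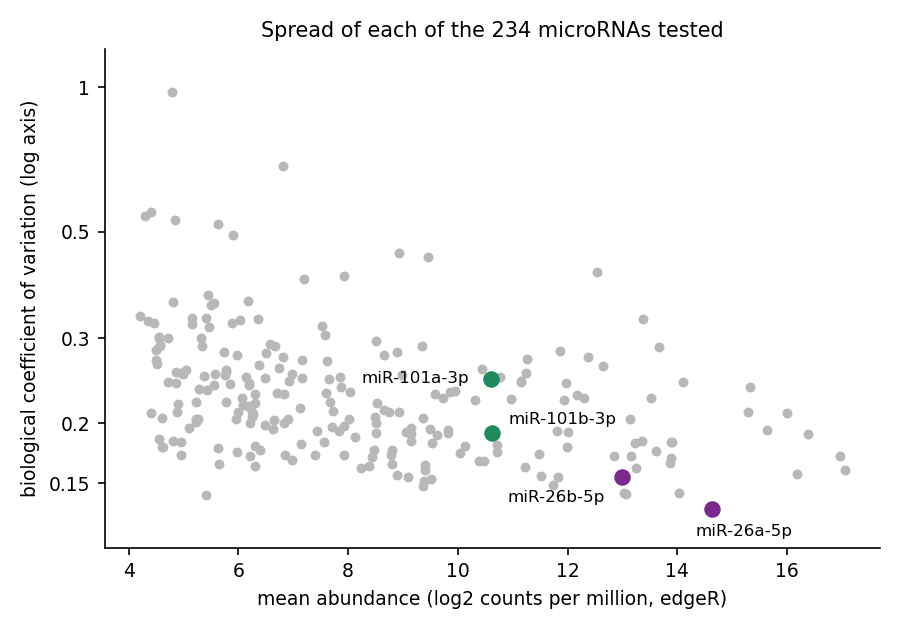
Biological coefficient of variation (log axis) against mean abundance for each of the 234 entries tested, with the miR-26 members in purple and the miR-101 members in green. miR-26a-5p (0.132) is the lowest point of the plot and miR-101a-3p (0.247) lies above the median of 0.218.

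The opposite strands of the 5 hairpins were nearly absent, so both families were represented almost wholly by their guides. miR-26b-3p, the most abundant of them, had 40 counts in Ocn and 33 in Prx1, or 0.0777% and 0.109% of the counts of both arms (exact binomial 95% intervals 0.0555% to 0.106% and 0.0752% to 0.153%). miR-26a-2-3p had 28 counts in Ocn and 24 in Prx1, and miR-26a-1-3p 4 and 6. These are the strands that tell the miR-26a loci apart, and miR-26a-2-3p was the higher one in both groups, though strand levels do not show how much guide each locus made. miR-101a-5p had 5 counts in Ocn and 1 in Prx1. miR-101b-5p had 0 of 9616 counts of both arms in Ocn, which allows a share of up to 0.0312% by the limit of 3 counts of that total (0.0384% by the exact binomial interval), and 1 of 6100 in Prx1.

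A further relative, miR-101c, had 18 counts in Ocn and 16 in Prx1. Its RefSeq sequence lies whole within that of miR-101a-3p, so its few counts cannot be assigned. None of these 6 entries passed the filter, so a change of arm ratio could not be tested for any member hairpin. Intervals and limits here cover counting error only.

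Members of the same family did not all move together from library to library. In Ocn, miR-101a-3p and miR-101b-3p had a Pearson r of 0.998 (exact permutation p = 0.00139, adjusted p = 0.0167 over 12 relations) and a Spearman rho of 1.00 (exact permutation p = 0.00278, adjusted p = 0.0333; n = 6). Without Ocn 3 and Ocn 5, the libraries farthest from the median, r was 0.951. In Prx1 they had r = 0.599 (permutation p = 0.0695, adjusted p = 0.203) and rho = 0.661 (permutation p = 0.0438, adjusted p = 0.131; n = 10), and r = 0.370 without Prx1 5 and Prx1 8. As described above, shortened reads could be assigned to either miR-101 member, and their part in this relation was not tested. For miR-26a-5p and miR-26b-5p, r was 0.0398 in Ocn (exact permutation p = 0.910, adjusted p = 0.910; rho = 0.143, exact permutation p = 0.803, adjusted p = 0.919) and 0.129 in Prx1 (permutation p = 0.711, adjusted p = 0.867; rho = 0.176, permutation p = 0.631, adjusted p = 0.842). Without Ocn 5 and Ocn 6 the first was 0.648, and without Prx1 5 and Prx1 6 the second was 0.168. None of the 8 relations across the families passed after adjustment, with the smallest adjusted p at 0.203 for r and 0.0667 for rho by permutation. miR-26b-5p had a rho of 0.943 in Ocn with each miR-101 member, while in Prx1 its rho was -0.600 with miR-101a-3p and -0.200 with miR-101b-3p.

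The entries most like each member were ranked by Spearman rho over the 16 libraries after the mean of each group was taken away, as a description, since all values of a library share its total and its depth. For miR-101a-3p, miR-101b-3p came first of all 233 other entries (rho = 0.797), followed among other microRNAs by miR-196b-5p (0.774), miR-27b-3p (0.759) and miR-148a-3p (0.706). miR-101b-3p was closest to miR-30e-5p (0.838), miR-126a-5p (0.815) and miR-141-3p (0.788) among other microRNAs, and miR-101a-3p stood at place 3 for it. miR-26b-5p was closest to miR-222-3p (0.859), miR-204-5p (0.838) and miR-34a-5p (0.803). miR-26a-5p was closest to miR-27b-3p (0.644), miR-30a-3p (0.626) and miR-99a-5p (0.544), and miR-26b-5p stood at place 97 for it (rho = 0.118).

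Of the closest entries, miR-27b-3p (log2 fold change 0.36, SE 0.11, edgeR adjusted p = 0.0220) and miR-99a-5p (0.45, SE 0.14, edgeR adjusted p = 0.0278) passed as higher in Ocn. The other closest entries did not pass in either direction, and of all entries tested 5.98% passed as higher in Ocn. miR-148a-3p, an abundant microRNA, was at 30059 CPM in Ocn 3, where the miR-101 members peaked, against an Ocn mean of 14561 CPM and a Prx1 mean of 12196 CPM. That Ocn mean includes Ocn 3 and is raised by it. As miR-148a-3p was picked for its likeness to miR-101a-3p over these same libraries, a shared peak follows in part from that choice.

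A list of 16 other microRNAs reported to target Ezh2 in mouse or human cells was set beside the members. Of the 13 tested, 0 were higher and 1 was lower in Ocn with edgeR, with 13.7% of all entries called in either direction. Their median log2 fold change was -0.05, against 0.22 for the members and 0.01 for all entries. Most of the tested entries belong to the let-7 and miR-98 family, and the median was the value of a let-7 entry. It therefore describes mainly that family. The one called was miR-30d-5p, at 7463 ± 892 CPM in Ocn, against 10875 ± 2268 CPM in Prx1 (SD, n = 6 and 10; log2 fold change -0.58, SE 0.13, edgeR adjusted p = 0.00478). miR-144-3p, a red blood cell microRNA that shares the first 7 bases of miR-101a-3p and departs from it at C8U, had 613 ± 207 CPM in Ocn, against 396 ± 143 CPM in Prx1 (log2 fold change 0.58, SE 0.20, edgeR adjusted p = 0.0569). miR-214-3p, a mesenchymal microRNA, was at -0.29 (SE 0.15, edgeR adjusted p = 0.228) and let-7a-5p at -0.21 (SE 0.15, edgeR adjusted p = 0.353).

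The most abundant entry of the list, let-7f-5p, reached 129515 ± 19216 CPM in Ocn, against 126372 ± 11107 CPM in Prx1 (SD, n = 6 and 10), with a log2 fold change of 0.01 (SE 0.11, edgeR adjusted p = 0.936).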

How the data were processed

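The authors' deposited table holds raw counts of mature microRNAs in 1 column per library, with no normalization. Its unit was taken from the values. Per the labels' protocols, libraries were made from 1 ng of RNA with the QIAseq miRNA kit. Per the submitters' processing notes, cutadapt 1.18 and mm10 were used. Not given in the sources used here are the aligner, the counting tool and whether the counts are of reads (amplification copies included) or of unique molecular identifiers. Sex is not given per library, nor is a batch or date.

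Levels are counts per 1000000 counts of the column (CPM). Ocn was compared with Prx1 by edgeR 4.0.16 in R 4.3.3 (TMM factors, filterByExpr, robust quasi-likelihood F test), with Benjamini-Hochberg adjustment over 234 entries, which held 99.7% or more of every library's counts. The SE is the log2 fold change divided by the square root of F. Fits with DESeq2 1.42.0 and limma 3.58.1 and other scalings, filters, thinning, covariates and left-out libraries were alternatives. Permutation tests were 2-sided, exact for 6 libraries and with 100000 draws for 10. Correlations used log2(CPM + 1). No library repeated another of its group: over the 60 pairs the lowest chi-square divided by its degrees of freedom was 5.04. The labels do not give littermates or shared handling, so p-values measure the spread between these libraries.

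The members and lists were chosen with earlier results of these data known. By rule, the text names the members, the opposite strands and miR-101c, their neighbours in level, the 3 entries most like each member, and from the Ezh2 list the 4 with the smallest p and the most abundant. Entries of the marker lists are named as examples.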

Additional observations from a re-analysis of the deposited data

Results flagged for a closer look

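On the linear CPM scale, miR-101a-3p in Ocn 3 had 3743 CPM and miR-101b-3p in Ocn 3 had 2852 CPM. In each case the gap to the next Ocn library (1897 CPM and 1820 CPM) was a larger share of the range of the group, 0.741 and 0.680, than Dixon's criterion allows for 6 values. Such a gap was looked for in 12 sets of values, the 4 members and both family ratios in each group, and chance flags about 1 set in 20. Both values come from 1 library and from close relatives in sequence. On the log2 scale the shares were 0.621 and 0.592, both under the critical value of 0.625, so neither value would stand out there by that criterion. No miR-26 member met that criterion in any library. The ratio of miR-101a-3p to miR-101b-3p in Ocn 3, 1.31, also depended on the scale, with 0.612 on the log2 scale used for ratios and 0.656 on the linear scale.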

How the results depend on the processing

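The log2 fold change of each member stayed positive in all 13 other settings, which include both exact permutation tests, and with each of the 16 libraries left out. Upper quartile scaling shifted the median over all entries by 0.124. With it miR-26a-5p was at 0.31 (edgeR adjusted p = 0.0297) and miR-26b-5p at 0.38 (edgeR adjusted p = 0.0139), or 0.17 and 0.24 above that median, and calls over all entries were 26 higher and 11 lower in place of 14 and 18. DESeq2 gave 0.18 and 0.25 (adjusted p = 0.0230 and 0.0312). With limma voom miR-26b-5p was at 0.29 (adjusted p = 0.0244), the miR-101 members were at 0.08 and 0.04, and 24 entries were higher. The exact permutation tests, chosen after seeing the data, gave 0.22 and 0.29 on column totals (adjusted p = 0.00417 and 0.0495), with 9 entries lower, and 0.18 for miR-26a-5p on TMM-scaled totals (adjusted p = 0.0117). With log10 of the total as a covariate, edgeR made 0 calls over all entries, 0 higher and 0 lower, with 40 at an unadjusted p under 0.05. Without that covariate 62 had such a p with edgeR and 63 with DESeq2. The cause of these differences was not tested.

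With a library left out, the log2 fold change ran from 0.16 to 0.26 for miR-26a-5p, 0.21 to 0.31 for miR-26b-5p, 0.12 to 0.48 for miR-101a-3p and 0.11 to 0.32 for miR-101b-3p. Calls over all entries ran from 24 to 36, with 8 to 20 higher and 13 to 20 lower; the higher calls were 9, 8 and 9 without Prx1 1, Prx1 2 and Prx1 3. The labels do not say whether the replicate numbers pair the libraries, and the correlations do not settle it. Correlations of same-numbered libraries ran from 0.02 to 0.20, with 6 of 6 above 0 and 3 of 6 over 0.1. Of the libraries, 1 of 6 Ocn and 3 of 6 Prx1 correlated best with their own number. The fit with the replicate block gave 0.22, 0.23, 0.31 and 0.20 for the members in the order above, with 27 calls over all entries, and changed no call of a member. The alternatives for the 5p to 3p ratio were not run, since no opposite strand passed the filter. Depth limits what can be said of the opposite strands and miR-101c, which had at most 73 counts in all libraries together.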
